A study of Mus musculus with 11 samples.

Results

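A set of 10 genes of activin and TGF-β signalling were followed in sorted epidermal cells of mice that lack Langerhans cells (LCs), the antigen-presenting cells of the epidermis. They are the activin subunit genes Inhba and Inhbb, the antagonist genes Fst and Fstl3, the receptor genes Acvr1b, Acvr2a, Tgfbr1 and Tgfbr2, and the feedback genes Smad7 and Skil. These 10 of 52550 listed genes were selected on the rise of Inhba, which was among the largest increases in keratinocytes (KCs) without LCs. The KC difference between genotypes is therefore a description here, with no test, while the dendritic epidermal T cell (DETC) difference and the comparison of the populations in wild type (WT) mice were tested. RNA-seq libraries came from KCs of 3 WT and 3 LC-/- mice and from DETCs of 3 WT and 2 LC-/- mice, all female and 8 weeks old. LC-/- mice carried the huLangerin-DTA transgene, in which regulatory sequence of the human langerin gene drives diphtheria toxin subunit A, so that LCs were missing from birth. WT mice were littermates without the transgene. The cells came from flank epidermis and were sorted as live cells lacking MHC-II, langerin and c-kit, KCs as CD45- and DETCs as CD45+ cells. Libraries are named W1 to W3 for WT and L1 to L3 for LC-/- after the numbers in their labels, and no DETC library had the number of L1. Whether libraries of both populations that share a number came from 1 mouse is not stated in the labels.

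Activins are dimers of inhibin β subunits. They bind a type II receptor such as the product of Acvr2a, which recruits the type I receptor encoded by Acvr1b, and SMAD2 and SMAD3 then carry the signal to the nucleus. TGF-β uses the receptors encoded by Tgfbr2 and Tgfbr1 and the same SMADs. Follistatin (Fst) and follistatin-like 3 (Fstl3) bind activin outside the cell, whereas SMAD7 and SnoN (the product of Skil) restrain the pathway inside it and are themselves transcribed in response to it. In skin, activin A (the product of Inhba) is known for its induction after wounding, and TGF-β for keeping LCs and other leukocytes in the epidermis.

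Inhba (ENSMUSG00000041324.14) lies on the plus strand at chr13:16011851-16031621 and Inhbb (ENSMUSG00000037035.5) on the minus strand at chr1:119415465-119422248 in GRCm38 (GENCODE release M21). Of the other genes, Fst lies at chr13:114452290-114458951 (minus strand), Fstl3 at chr10:79777272-79782630, Acvr1b at chr15:101174067-101213684, Acvr2a at chr2:48814109-48903269, Tgfbr1 at chr4:47353222-47414931 and Skil at chr3:31095058-31122577 (all plus strand). Tgfbr2 lies at chr9:116084293-116175360 on the minus strand, and all 10 genes are annotated as protein-coding. The sequences before their start sites are shown because these genes encode related subunits but differed in level and in their values without LCs. Each is the 250 bases before the start site from RefSeq (GRCm38.p6), at chr13:16011601-16011850 (plus strand) and chr1:119422249-119422498 (minus strand), and capitals mark a match to TATAAA.

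Inhba: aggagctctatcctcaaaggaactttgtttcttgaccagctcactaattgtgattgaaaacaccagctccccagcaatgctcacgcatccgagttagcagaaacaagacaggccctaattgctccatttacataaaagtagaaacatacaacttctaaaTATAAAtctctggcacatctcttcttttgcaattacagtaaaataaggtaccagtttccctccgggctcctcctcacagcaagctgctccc

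Inhbb: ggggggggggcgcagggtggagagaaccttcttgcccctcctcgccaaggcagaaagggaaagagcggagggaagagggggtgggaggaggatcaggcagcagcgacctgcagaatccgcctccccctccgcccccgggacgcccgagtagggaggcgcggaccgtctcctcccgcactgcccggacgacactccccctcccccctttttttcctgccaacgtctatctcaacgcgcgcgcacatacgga

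The Inhba sequence had a GC content of 43.2% and 3 CG dinucleotides, and its TATAAA began 91 bases before the start site. The Inhbb sequence had a GC content of 68% and 21 CG dinucleotides. Over 32851 promoter windows of 250 bases, the median GC content was 52.4% and the median number of CG dinucleotides was 6, and 12.4% of windows held TATAAA on either strand. The letters TGACTCA (AP-1, in 4.46% of windows), TGACGTCA (CRE, 1.55%), GTCTAGAC (SMAD palindrome, 0.167%) and CAGACA (17.1%) were searched on both strands and were found in neither of these 2 windows. A match or its absence is a property of these letters only.

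The libraries held 13491075 to 19750440 reads on genes, and all 10 genes passed the filter of more than 1 CPM in at least 2 libraries, where CPM scales reads to a common library total, as did 14419 genes in all. Values are read counts divided by the size factor of the library (normalized counts). Differences are on the scale of log2(normalized count + 1), with standard errors (SE) and Benjamini-Hochberg adjusted p-values from limma over the 14419 genes. A gene counted as called below an adjusted p of 0.05. Replicates differed beyond counting noise (chi-square per degree of freedom 7.74 to 23.1 between pairs), and the p-values measure only the spread between these libraries. The labels were checked against markers. Cd207, the gene of langerin, had 6.15 to 26.9 normalized counts in WT KCs and 0 reads in the 3 LC-/- KC libraries. Keratinocyte markers (12 genes) summed to 559539 to 596850 in KC libraries and DETC markers (12 genes) to 188528 to 223712 in DETC libraries. DETC libraries also held keratinocyte transcripts, and their keratinocyte markers summed to 95821 to 117430 in WT and 102416 to 155687 in LC-/- mice. In sorted bulk RNA, fewer cells of a type and less RNA per cell cannot be told apart.

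**Figure D1:**
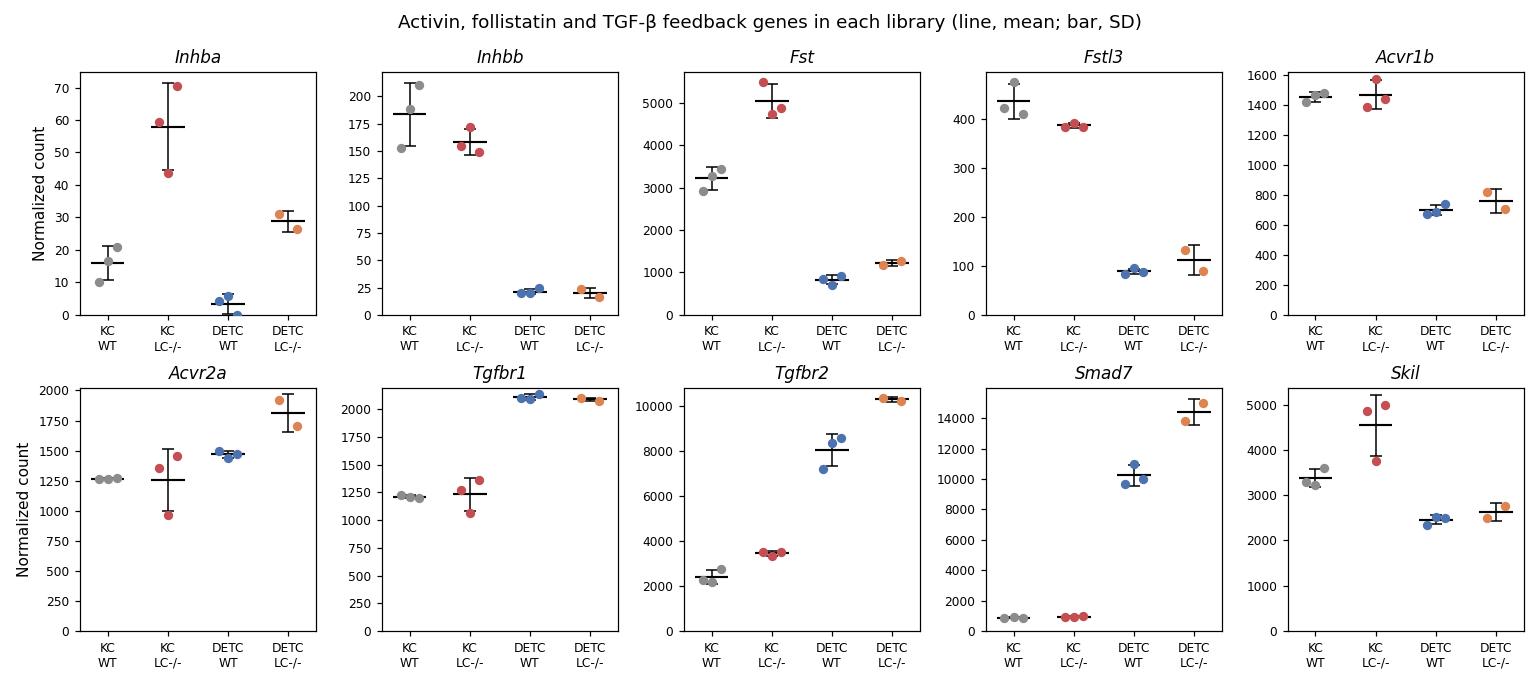
Normalized counts (vertical axes, each from 0) of the 10 genes in each of the 11 libraries by population and genotype; points are libraries, lines are group means and bars are SDs. The Inhba points of LC-/- mice lie above those of WT mice in both populations, and the Smad7 points of DETCs, at 9700.0 to 15005, lie far above those of KCs, at 832 to 972.

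Inhba, whose rise chose this list, had the largest log2 difference between the genotypes among the 10 genes in KCs, but it was scarce. WT KCs held 10.2, 16.7 and 20.7 normalized counts of it and LC-/- KCs 59.5, 43.8 and 70.4, from 10 to 24 and 43 to 67 reads. The lowest LC-/- library was above the highest WT library. The means were 15.9 ± 5.29 (SD, n = 3) and 57.9 ± 13.4 (SD, n = 3), a 3.64-fold difference and 1.83 (SE 0.31) on the log2 scale. WT DETCs held 4.4, 5.8 and 0 and LC-/- DETCs 31.1 and 26.5, from 4, 7 and 0 reads and from 32 and 24 reads. Both LC-/- DETC libraries were again above every WT one, and the 0 of W3 allows up to 3 reads. The DETC means of 3.38 ± 3.01 (SD, n = 3) and 28.8 ± 3.21 (SD, n = 2) differed 8.52-fold, by 3.17 (SE 0.82) on the log2 scale, with an adjusted p of 0.0820, so the gene was not called. With a pseudocount of 8 the log2 difference was 1.73 and the adjusted p 0.0282, and with 1 fit over all 11 libraries the adjusted p was 0.0136. Across all alternatives with a p it ran from 0.0136 to 0.375, and without W3 the difference was 2.30 with an adjusted p of 0.0818.

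Inhbb, the other activin subunit gene, had overlapping genotypes in both populations. It had 153 to 210.1 normalized counts in WT KCs and 149 to 172 in LC-/- KCs, and these ranges overlapped. The KC difference was -0.20 (SE 0.14) on the log2 scale. WT DETCs had 19.6 to 24.3 and LC-/- DETCs 16.6 and 23.3, a difference of -0.10 (SE 0.33) with an adjusted p of 0.909.

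Fst encodes follistatin, which binds activin almost irreversibly. It had 2925, 3288 and 3452 normalized counts in WT KCs and 5495, 4738 and 4882 in LC-/- KCs. The KC groups did not overlap, and their means of 3221 ± 269.7 and 5039 ± 402 (SD, n = 3 each) differed by 0.65 (SE 0.09) on the log2 scale. The WT DETC libraries held 847, 715 and 916 and the LC-/- DETC libraries 1165 and 1269. Fst rose in LC-/- DETCs by 0.57 (SE 0.12) on the log2 scale, from 826 ± 102 (SD, n = 3) to 1217 ± 73.7 (SD, n = 2), with an adjusted p of 0.0488. The call was at the edge of the threshold and was lost when any one of the 5 libraries was left out (adjusted p 0.0857 to 0.130), and over all alternatives the adjusted p ran from 0.00613 to 0.244.

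Fstl3, the gene of a related activin-binding protein, had lower values in LC-/- KCs but was not past the threshold there. It was 410 to 477 in WT and 384.5 to 392 in LC-/- KCs, without overlap and with a log2 difference of -0.17 (SE 0.07). WT DETCs had 84.0 to 94.9 and LC-/- DETCs 89.6 and 133, a difference of 0.29 (SE 0.22) with an adjusted p of 0.522. Of its exon bases, 47.3% are shared with Prss57 on the opposite strand, and whether reads were counted by strand was not given in the sources used here. Prss57 itself had at most 5 reads in a library.

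Of the receptor genes, Tgfbr2, which encodes the type II receptor that binds TGF-β, had the largest difference in KCs. WT KCs held 2285, 2193 and 2776 normalized counts and LC-/- KCs 3515.5, 3339 and 3511. The KC groups did not overlap, and the means of 2418 ± 313 and 3455 ± 101 (SD, n = 3 each) differed by 0.52 (SE 0.10) on the log2 scale. DETCs held more, with 7217.5, 8356 and 8569 for WT and 10362 and 10233 for LC-/- mice. The DETC groups did not overlap either, but the difference of 0.36 (SE 0.11) had an adjusted p of 0.112, and of the 15 alternatives DESeq2 on the recovered reads alone called it (adjusted p 0.0270).

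Acvr2a, a type II receptor gene of activin, was 1268, 1262 and 1269.8 in WT KCs and 1352, 965 and 1452 in LC-/- KCs. The LC-/- KC libraries lay on both sides of the WT ones, and the difference was -0.03 (SE 0.16) on the log2 scale. WT DETCs had 1498, 1438 and 1472 and LC-/- DETCs 1923 and 1702, without overlap, and the difference of 0.30 (SE 0.09) had an adjusted p of 0.115. Of its exon bases 7.84% are shared with Orc4 on the opposite strand.

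The type I receptor genes Acvr1b and Tgfbr1 had overlapping ranges in both populations. In KCs the log2 differences were 0.01 (SE 0.05) for Acvr1b and 0.02 (SE 0.09) for Tgfbr1. In DETCs they were 0.12 (SE 0.11) with an adjusted p of 0.601 for Acvr1b and -0.01 (SE 0.08) with an adjusted p of 0.945 for Tgfbr1.

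Smad7, whose product blocks activated type I receptors, had 884, 914 and 832 normalized counts in WT KCs and 907, 933 and 972 in LC-/- KCs. These KC ranges overlapped, with a log2 difference of 0.10 (SE 0.05). WT DETCs had 9700.0, 10981 and 10023 and LC-/- DETCs 13807.5 and 15005. Smad7 rose in LC-/- DETCs by 0.49 (SE 0.10) on the log2 scale, from 10235 ± 666 (SD, n = 3) to 14406 ± 847 (SD, n = 2), with an adjusted p of 0.0453. As with Fst, leaving out any one library ended the call (adjusted p 0.0541 to 0.170). Over the 15 alternatives 7 called it, with adjusted p from 3.59e-04 to 0.226, and with quantile normalization the difference was 0.22.

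Skil encodes SnoN, a repressor of SMAD-driven transcription. It had 3302, 3228 and 3601 normalized counts in WT KCs and 4864, 3756 and 4997.5 in LC-/- KCs. The KC groups did not overlap, although L2 stood near the WT libraries, and the difference was 0.42 (SE 0.12) on the log2 scale. For WT DETCs the values were 2338.5, 2523.5 and 2502 and for LC-/- DETCs 2495 and 2766, and these overlapped. The DETC difference was 0.10 (SE 0.09) with an adjusted p of 0.597.

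In DETCs the test thus called 2 of the 10 genes higher (Fst and Smad7) and 0 lower, where 3.13% of the 14419 genes were called higher and 0.430% lower. With limma 5 passed an unadjusted p of 0.05 as higher and 0 as lower, beside 1882 and 893 of the 14419 genes. EdgeR called 1 higher and 0 lower (410 and 73 of all genes), and DESeq2 3 and 0 (868 and 211 of all genes). DESeq2 gave no adjusted p for Inhba and Inhbb in DETCs and so could call neither. The groups did not overlap for 5 genes that were higher (Inhba, Fst, Acvr2a, Tgfbr2 and Smad7) and for 0 that were lower, against 21.3% and 16.5% of all genes. The median difference of the 10 genes was 0.30 on the log2 scale and that of all genes 0.02. KCs gave the contrast behind the choice of these genes, so their counts there restate that choice in part and nothing is read from them. In KCs 3 genes were past the threshold as higher (Inhba, Fst and Tgfbr2) and 0 as lower, beside 5.37% and 1.85% of all genes. Without overlap, 4 were higher and 1 lower in KCs, beside 16.6% and 14.9% of all genes. Leaving out W1, W2, L1 or L3 took the KC count to 0, leaving out W3 to 1 (Tgfbr2) and leaving out L2 to 2 (Fst and Skil), and DESeq2 put Skil in place of Inhba. Whether any difference between genotypes itself differed between KCs and DETCs was not tested.

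**Figure D2:**
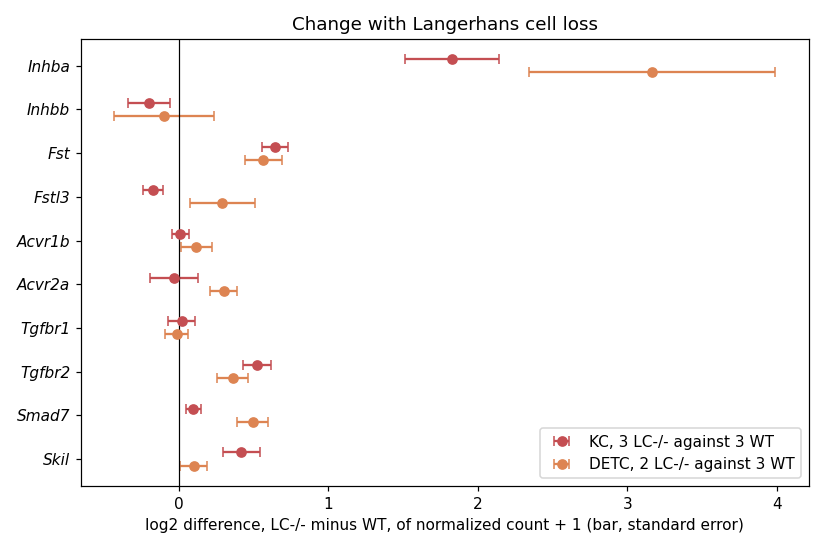
Difference between LC-/- and WT mice (horizontal axis, log2 of normalized count + 1) for each gene in KCs and DETCs; points are fitted differences and bars standard errors. Inhba lies farthest to the right, at 1.83 in KCs and 3.17 in DETCs with the widest bars, while Inhbb, Acvr1b and Tgfbr1 lie between -0.20 and 0.12 in both.

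Marker lists were also compared between the genotypes in the DETC libraries. The 12 DETC markers summed to 219251 to 223712 in WT and 188528 to 193003 in LC-/- mice, with 1 of 12 called lower and 6 lower without overlap (16.5% of all genes). The sums of the 12 keratinocyte markers, given above, overlapped between the genotypes. Their median log2 difference was 0.24, with 10 of 12 above 0 and 3 higher without overlap (21.3% of all genes). Of these 12, limma and edgeR called 0, with 3 higher at an unadjusted p under 0.05 in limma, and DESeq2 called 2 higher. The 8 immediate early genes, which respond to cell handling as well as to stimulation, summed to 277616 to 330357 in WT and 344237 to 395912 in LC-/- mice. Of these 8 genes 7 were higher without overlap (21.3% of all genes) and 0 were called by limma or edgeR. At an unadjusted p under 0.05 in limma 4 were higher, while DESeq2 called 3. The counts over all genes for these rules are given above. Langerhans cell markers summed to 1685 to 2045 in WT and 1099 to 1321 in LC-/- DETCs, with 4 of the 8 tested genes called lower (0.430% of all genes). Within these sums Itgax, Ctss and Cd68 had means of 471, 448 and 261 in WT and still 436, 329 and 254 in LC-/- DETCs. Cd74 went from a mean of 389 to 150, and Cd207 was at 16.5 to 46.7 normalized counts in WT and at 0 and 4.42 in LC-/- libraries. In KCs limma called 2 of the 12 keratinocyte markers and 1 of the 12 DETC markers higher and 0 lower, beside 5.37% and 1.85% of all genes. For the DETC markers edgeR also had 1 higher and 0 lower, but DESeq2 had 0 higher and 1 lower. Except for Thy1, these markers had at most 10.5 normalized counts in a KC library. The Langerhans cell markers summed to 241 to 399.8 in WT and 115 to 189 in LC-/- KCs, with 4 of 8 called lower (1.85% of all genes). Cd68 of this list was higher without overlap, at 35.4 to 41.0 in WT and 55.1 to 69.4 in LC-/- KCs, and was not called by limma, while edgeR called 1 of the 8 higher. Cd207, Itgax and Ctss were at 0 in all LC-/- KC libraries, although Itgax had 0 to 1.86 and Ctss 4.10 to 5.57 in WT KCs. Their part in the differences of the 10 genes was not tested.

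In WT mice, all 10 genes differed between DETCs and KCs. The receptor genes Tgfbr2, Tgfbr1 and Acvr2a and the feedback gene Smad7 were higher in DETCs, and both ligand genes, both antagonist genes, Acvr1b and Skil were lower. Of all 14419 genes, 41.0% were called higher and 35.1% lower in this comparison, so a call alone sets these genes little apart. Smad7 was 11.7-fold higher in DETCs, by 3.54 (SE 0.07) on the log2 scale, with an adjusted p of 3.57e-10. Tgfbr2 was 3.33-fold higher (log2 difference 1.74, SE 0.11, adjusted p 3.15e-07) and Tgfbr1 1.74-fold higher (0.80, SE 0.06, adjusted p 1.19e-06). Acvr2a was 1.16-fold higher (0.21, SE 0.06, adjusted p 0.00893), but the sign of this small difference turned with quantile normalization (-0.061, adjusted p 0.359), and neither edgeR (adjusted p 0.0504) nor 1 fit over all 11 libraries (adjusted p 0.131) called it. Quantile normalization moved the median of all genes from 0.07 to -0.24.

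The ligand and antagonist genes were higher in KCs. Inhbb was 8.64-fold higher there (log2 difference of DETC against KC -3.05, SE 0.19, adjusted p 4.17e-07) and Inhba 4.70-fold (-2.30, SE 0.68, adjusted p 0.0118). The Inhba difference was -1.43 without the DETC library of W3, which held 0 reads of it, and without the filter on low values its adjusted p was 0.0923. Fstl3 was 4.90-fold higher in KCs (-2.28, SE 0.11, adjusted p 7.27e-08) and Fst 3.90-fold (-1.97, SE 0.10, adjusted p 1.01e-07). Acvr1b was 2.08-fold higher in KCs (-1.06, SE 0.07, adjusted p 4.36e-07) and Skil 1.38-fold (-0.46, SE 0.07, adjusted p 2.41e-04).

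Compared per length of their exons, the genes were ordered differently in the populations. In WT KCs Fst was highest, at a level of 702 normalized counts per kb, followed by Skil at 348, Acvr1b at 329, Tgfbr2 at 295, Acvr2a at 223, Smad7 at 194, Tgfbr1 at 185 and Fstl3 at 179. Inhbb at 43.2 and Inhba at 2.49 per kb were lowest. The ranges of Skil and Acvr1b, Acvr1b and Tgfbr2, Smad7 and Tgfbr1, and Tgfbr1 and Fstl3 overlapped, so the order of these neighbours is not resolved. In WT DETCs Smad7 was highest, at 2264 per kb, followed by Tgfbr2 at 983, Tgfbr1 at 323, Acvr2a at 258, Skil at 253, Fst at 179.96, Acvr1b at 158, Fstl3 at 36.5, Inhbb at 4.99 and Inhba at 0.529. Here Acvr2a and Skil overlapped, as did Fst and Acvr1b. In LC-/- DETCs Inhba reached 4.51 per kb and Inhbb 4.69, and their ranges overlapped, whereas in LC-/- KCs Inhba at 9.06 stayed below Inhbb at 37.2.

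**Figure D3:**
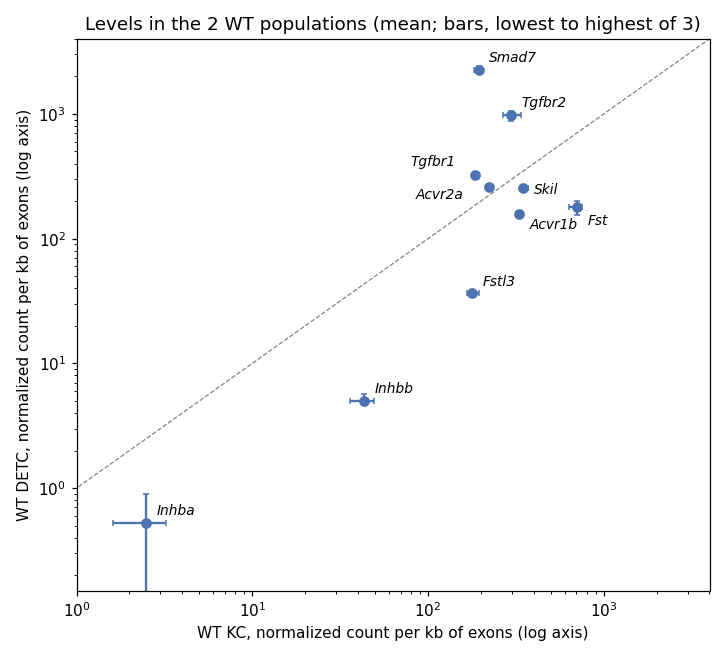
Levels of the 10 genes in WT KCs (horizontal axis) and WT DETCs (vertical axis), in normalized counts per kb of exons on log axes; points are means of 3 libraries, bars run from the lowest to the highest library and the dashed line marks equal levels. Smad7 (194 in KCs, 2264 in DETCs) lies farthest above the line and Inhbb (43.2 and 4.99) far below it, and the lower bar of Inhba in DETCs runs to 0, off the log axis.

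Because DETC libraries contained keratinocyte transcripts, the level of each gene in a DETC library was set beside the KC mean of the same genotype. The median over the 12 keratinocyte markers was 15.05% to 17.7% in WT DETC libraries and 15.7% in L3 and 24.3% in L2, with single markers between 5.22% and 61.2%. Inhbb stood at 10.7% to 13.2% in WT and 10.5% and 14.7% in LC-/- libraries, and Fst at 22.2% to 28.4% and at 23.1% and 25.2%. Fstl3 was at 19.2% to 21.7% in WT and 23.1% and 34.4% in LC-/- libraries. Fst and Fstl3 were within the range of single keratinocyte markers in each library, but Cdh1 alone set the upper end of that range. Both were above the marker median in each library, except Fst in L2 (23.1% against 24.3%). Cdh1 had 16437 and 19377 normalized counts in LC-/- DETCs beside a KC mean of 38891, and 10917 to 15229 beside 24887 in WT. Inhbb was below the lowest marker in W2 (10.8% against 11.9%) and L2 (14.7% against 15.5%). Inhba was at 0% to 36.3% in WT DETC libraries and at 53.7% in L2 and 45.8% in L3. There Cdh1, the highest marker, was at 49.8% and 42.3% and the marker medians were 24.3% and 15.7%. With 32 and 24 reads of Inhba in these libraries, the gaps between Inhba and Cdh1 are not resolved. By contrast Smad7 stood at 1107% to 1253% of the KC mean in WT and 1473% and 1601% in LC-/- libraries, and Tgfbr2 at 299% to 354% and 296% and 299.9%. The part of keratinocyte RNA in the DETC values of Inhba, Inhbb, Fst and Fstl3 was not tested.

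**Figure D4:**
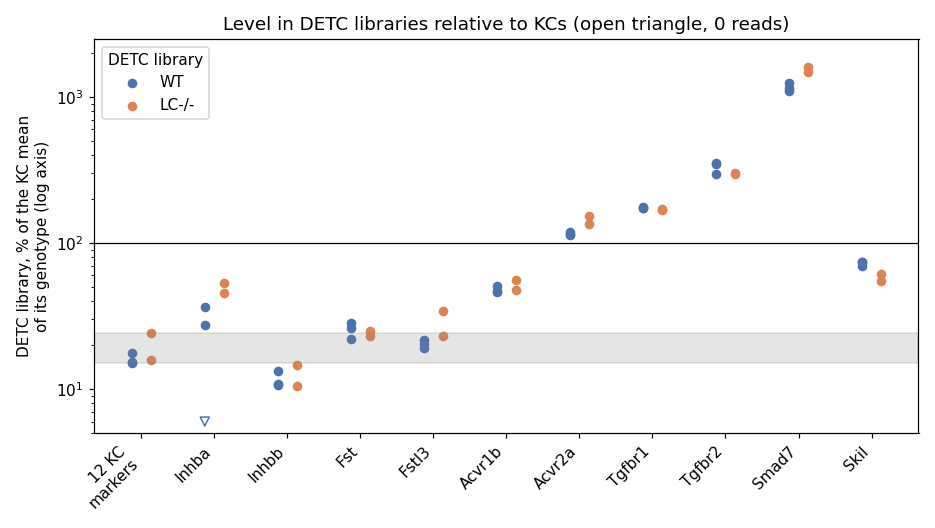
Level in each DETC library as a percentage of the KC mean of its genotype (log axis) for the median of 12 keratinocyte markers and the 10 genes; the grey band spans the marker medians, 15.05% to 24.3%, and the open triangle marks the library with 0 reads of Inhba. Fst, Fstl3 and Inhbb lie in or near the band, while Tgfbr1, Tgfbr2, Smad7 and Acvr2a lie above 100%.

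Of 72 other genes of the pathway, 60 passed the filter. In DETCs limma called 1 of them higher and 0 lower, where it called 3.13% and 0.430% of all genes. At an unadjusted p under 0.05 limma had 23 higher and 1 lower, against 1882 and 893 of all 14419 genes. EdgeR called 1 and 0, against 410 and 73 of all genes, and DESeq2 8 and 0, against 868 and 211. Without overlap 26 were higher and 4 lower, against 21.3% and 16.5% of all genes, with a median difference of 0.27 on the log2 scale against 0.02 for all genes. The gene called was Tgfb3, a TGF-β ligand gene, at 158, 255 and 232 in WT and 406 and 407 in LC-/- DETCs. Tgfb3 rose by 0.94 (SE 0.20) on the log2 scale, with an adjusted p of 0.0489, and the call was lost without W2, W3, L2 or L3. Among the 19 SMAD genes and their regulators, 13 were higher in LC-/- DETCs without overlap (21.3% of all genes). Limma and edgeR called 0 of the 19 and DESeq2 3. At an unadjusted p under 0.05 in limma 11 were higher, beside the counts over all genes just given for each rule.

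In KCs 4 of the 60 genes were called higher and 1 lower, near the 5.37% and 1.85% of all genes, and the median difference was 0.03 against -0.01 for all genes. Smad1, a SMAD of the BMP branch, was 1356 to 1472 in WT and 1888 to 1971 in LC-/- KCs and rose by 0.45 (SE 0.04, adjusted p 0.0193). Pmepa1, whose product limits SMAD activation, was 824 to 859 in WT and 1036 to 1139 in LC-/- KCs and rose by 0.37 (SE 0.05, adjusted p 0.0243). The genes of the SMAD corepressors Tgif1 and Tgif2 rose by 0.36 (SE 0.06, adjusted p 0.0383) and 0.31 (SE 0.06, adjusted p 0.0450). Mmp2, a matrix metalloproteinase gene, was 211 to 262 in WT and 117 to 147 in LC-/- KCs, a decrease of -0.78 (SE 0.13, adjusted p 0.0376). DESeq2 called 12 higher and 2 lower, against 1215 and 537 of all genes, and edgeR 11 and 2, against 1192 and 591. With limma, omission of W1, W2, L1 or L3 gave 0 calls among the 60 genes. Omission of W3 gave 2, Smad1 and Snai1, and Snai1 was not called with all libraries. Omission of L2 gave 3 (Smad1, Pmepa1 and Tgif1).

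Between the WT populations 18 of the 60 genes were called higher in DETCs and 34 lower, against 41.0% and 35.1% of all genes. Among ligands, Tgfb1 was 5.20-fold higher in DETCs (log2 difference 2.38, SE 0.11, adjusted p 5.77e-08) and Tgfb2 was 6.36-fold higher in KCs (-2.65, SE 0.22, adjusted p 3.33e-06). Gdf11 had 1.15 normalized counts in KCs and 89.8 in DETCs, and Inha, which encodes the inhibin α subunit, 21.8 in KCs and 2.61 in DETCs. Among genes of ligand storage and binding, Nrros, which anchors latent TGF-β on leukocytes, had 10.1 normalized counts in KCs and 349.5 in DETCs (adjusted p 1.07e-07), while Cd109, a TGF-β co-receptor gene of keratinocytes, was 6.85-fold and the integrin gene Itgb6 5.36-fold higher in KCs (adjusted p 2.02e-09 and 9.00e-05). The decorin gene Dcn had 19.0 in KCs and 1.80 in DETCs.

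Among other receptor genes, Bambi, a decoy receptor gene, was 9.32-fold higher in DETCs (adjusted p 3.64e-09), whereas the BMP receptor genes Bmpr1b, Bmpr1a and Bmpr2 were 3.53-fold, 3.13-fold and 2.14-fold higher in KCs. Inside the cell, Ldlrad4, whose product limits SMAD phosphorylation, had 65.3 normalized counts in KCs and 2702 in DETCs, and Smad3 was 6.77-fold higher in DETCs (adjusted p 1.66e-10 and 1.11e-07). Like Smad7, Ldlrad4 was thus an inhibitor gene with its higher level in DETCs, while the inhibitory SMAD gene Smad6 was higher in KCs (24.6 against 5.35, adjusted p 0.00426), as was Zfyve9 (4.88-fold), the gene of a SMAD anchor. Of the targets, Itgae, the integrin gene that TGF-β induces in epidermal T cells, had 1.93 in KCs and 23662 in DETCs. Snai1 was at 0.651 and 15.8 and Timp1 at 0.683 and 13.05, and Mmp2 was 8.87-fold higher in KCs (adjusted p 1.01e-06).

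The genes whose pattern was most like Inhba over all 11 libraries, among 14039 genes with a mean of at least 10, were Gprc5a (Pearson r 0.913), Arid4b (0.907), Gm37289 (0.902), Tbc1d15 (0.900) and Gm6611 (0.899). These points share the population and genotype groups, so r is a description. Gprc5a had means of 72.7 and 124 normalized counts in WT and LC-/- KCs and 39.5 and 68.5 in WT and LC-/- DETCs. Over the 6 KC libraries, which share the contrast that chose Inhba, the closest were Gm42679 (0.997), Cdyl (0.997), Tbc1d1 (0.996), Rnf217 (0.995) and Tmem248 (0.995). Of the other 9 genes, Fst had r = 0.971 with Inhba in KCs (rank 176), Tgfbr2 0.948 (rank 442) and Skil 0.912 (rank 856), while Fstl3 had -0.75 and Inhbb -0.38.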

How the data were processed

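The authors aligned paired-end poly-A RNA-seq reads to GRCm38, used featureCounts for read counts of genes and, per the labels, used DESeq2. The deposited values are a signal per gene, read counts scaled by median-of-ratios size factors, and whether counting used strand was not given in the sources used here. Whole reads were recovered for 100% of values (within 0.01 reads), and 52403 of 52550 identifiers matched a symbol in GENCODE M21. A count of 0 allows up to 3 reads, which covers counting error only. Genotypes within a population, and DETC against KC in WT mice, were compared on log2(normalized count + 1) with limma 3.58.1 (two-sided, trend, Benjamini-Hochberg) in R 4.3.3, after keeping genes above 1 CPM in at least 2 libraries. DESeq2 1.42.0 (868 genes higher and 211 lower in DETCs, against 452 and 62 with limma) and edgeR 4.0.16 (410 and 73) were run on the recovered reads. In KCs limma called 775 higher and 267 lower, DESeq2 1215 and 537, and edgeR 1192 and 591. The other alternatives were quantile normalization, size factors within a comparison, pseudocounts of 0.5 and 8, a minimum mean of 10, no filter, eBayes without trend, 1 fit over all 11 libraries, omission of each library and a replicate block. Scripts were tested on simulated data.

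The genes and lists were chosen with earlier results of these data known. The text names the 10 genes, per comparison at most the 4 largest called differences of each pathway list, the 5 genes most correlated with Inhba, and markers. Promoter windows came from RefSeq (GRCm38.p6), and among the 10 genes the windows of 7 were searched. Prss57, Orc4, Itgax, Ctss, Cd68, Cd74 and Cdh1 were named after their values were seen. Of marker lists for other cell types, 9 of 10 hair follicle, 4 of 8 fibroblast and 2 of 6 melanocyte genes passed the filter. So did 2 of 6 mast cell genes and 1 of 5 endothelial genes. Limma called 0 of these tested genes between genotypes in either population. Few genes were tested in all but the first list, so 0 calls there say little about those cells. Below an unadjusted p of 0.05 in limma, the hair follicle list had 2 higher and 1 lower genes in each population. The fibroblast and melanocyte lists had 1 lower each in KCs. In KCs edgeR called 1 hair follicle gene higher, 1 fibroblast gene lower and 1 melanocyte gene lower, and DESeq2 1 hair follicle gene higher. Samples were grouped by the condition and population in their labels.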

Additional observations from a re-analysis of the deposited data

How the results depend on the processing

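Of 150 differences of the 10 genes in DETCs under alternatives, 126 counted as kept in direction and side of the threshold. They include Inhba and Inhbb with DESeq2, which kept direction but had no adjusted p and so no side. Between the WT populations 166 of 170 kept both. Of 160 in KCs, 158 moved by less than 1 SD between replicates, and with quantile normalization Fst moved to 0.49 and Acvr1b to -0.09. The sign turned for Inhbb in DETCs when single libraries were left out (-0.33 to 0.13), and with quantile normalization for Skil in DETCs (-0.050) and Acvr2a between the WT populations (-0.061). In KCs the sign of differences near 0 also turned, for Acvr1b without W1 (-0.0081) or L2 (-0.041) and with quantile normalization, for Acvr2a without L2 (0.15), and for Tgfbr1 without L1 (-0.0072) or L3 (-0.057) and with quantile normalization (-0.065). The count called in DETCs, 2 in the fit as reported, was 0 with quantile normalization, 0 without a filter, 0 with eBayes without trend, 1 with size factors within the comparison, 1 with a minimum mean of 10, 1 with edgeR, and 0 to 0 when single libraries were left out. Without trend limma called 0 of all genes in DETCs, though 1554 were higher and 853 lower by an unadjusted p below 0.05. The KC count of 3 was 0 without a filter and 0 to 2 when single libraries were left out. Of the other pathway genes, 1 was called in DETCs, against 0 with quantile normalization, a minimum mean of 10, no filter or no trend, 9 with 1 fit over all 11 libraries, 8 with DESeq2, and 0 to 2 when single libraries were left out. In KCs 5 were called, against 3 with quantile normalization, 2 without a filter, 3 without trend, 14 with DESeq2, 13 with edgeR, and 0 to 3 when single libraries were left out. The cause of these shifts was not tested, except that without a filter 27524 genes enter the adjustment and that omission leaves fewer libraries. Where omission left an LC-/- group of 1 DETC library, the lone library was assumed to vary like the others. Over all genes, leaving out single libraries gave 29 to 478 higher calls in DETCs and 5 to 552 in KCs. The Inhba values rest on 0 to 67 reads a library.

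Deviations from the group mean of the WT KC and DETC libraries with the same label number had correlations of -0.0534 (W1), 0.0667 (W2) and 0.117 (W3) over 14419 genes, not all above 0.1, so the number was not taken to pair the libraries, and whether it marks the same mouse is not settled by these values. The KC library of W1 correlated best with the DETC library of W2. With the number as a replicate block in a paired fit, 10 of the 10 genes and 5858 higher and 5015 lower of all genes were called between the WT populations, against 5906 and 5059 without it, and the adjusted p was 0.0210 for Acvr2a and 0.0102 for Inhba.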
